A study of Danio rerio with 16 samples.

Results

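Actin genes of striated muscle (actc1a, actc1b and actc2) and of the cytoplasm (actb1 and actb2) were followed in the fast muscle of exercised and non-exercised zebrafish. Their probes were found by the RefSeq accession that the arrays print for a non-control probe, which gave 10 probes of 5 genes among 43803 probes, of which 9104 carried an accession that named 5952 genes. There was 1 probe for actc1a, 2 for actc1b, 1 for actc2, 2 for actb1 and 4 for actb2. The genes were chosen by name with earlier results of the same arrays known, and in particular selected on the exercised against non-exercised difference of actc2, which was low in exercised fish. The differences between the groups are therefore given for these 10 probes as a description, with no test.

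Actin is the protein of the thin filaments on which myosin pulls during contraction. Vertebrates carry several actin genes whose proteins are nearly identical. The striated forms build the sarcomeres of skeletal and heart muscle, and the cytoplasmic forms build the cytoskeleton of nearly every cell and are common reference genes in expression studies. The genes actc1a, actc1b and actc2 are named after the alpha-actin of heart muscle, and actb1 and actb2 encode beta-actin.

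All fish were adult wild-type zebrafish bought from a pet shop. The exercised group was trained at a swimming speed of 0.4 m/s in 20 daily sessions of 6 hours. The water of the non-exercised group moved at 0.1 m/s. Dorsal fast muscle of 8 fish per group was hybridised, 1 fish per array, and the fish were the replicates. Each group was kept in a swim tunnel of its own, its arrays lay on 2 slides of their own, and its slides were scanned on a day of their own, so that training cannot be told apart from tunnel, slide and day of scanning. The p-values below measure the spread between fish of 1 tunnel per group.

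The arrays were labelled with Cy3 alone. The level of a probe is the log2 of its processed signal minus the log2 of the 75th percentile of its array, so that a level of 0 is the brightness of that percentile. The processed signal is the spot intensity after background subtraction and any further correction by the scanner software. The scanner software placed 21.1% to 54.0% of an array's probes well above background. Across the 43803 probes, limma's moderated test with Benjamini-Hochberg adjustment called 2005 higher and 785 lower in exercised fish at an adjusted p under 0.05, and the median difference of all probes was 0.26 on the log2 scale. It was -0.06 over 2540 bright RefSeq-named probes, those well above background on all 16 arrays, and it was within 0.1 of 0 under the other scalings and background corrections, so small positive differences are to be read against this shift. Of 19 listed genes of fast muscle, 12 were measured and 10 of these were well above background on every array. Of 10 listed genes of slow muscle, 4 were measured and 3 were well above background on every array. The slow muscle genes had a summed level of 162 to 572 times the 75th percentile in exercised and 151 to 520 in non-exercised fish. For the fast muscle genes it was 1757 to 7304 and 1897 to 5489. Of 13 listed genes of heart muscle, 7 were measured, of which 4 (myl7, cmlc1, nppa and tnnc1a) were well above background on no array, myh6 and nkx2.5 on 1 array each, and tnni1b, which slow muscle also expresses, on all 16. Their summed level ran from 0.967 to 6.18 times the 75th percentile in exercised and from 1.51 to 12.6 in non-exercised fish. These sums depend on the probes and on how many genes of a list were measured. They can be compared between fish but not between lists, and the share of each muscle type was not computed.

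The actin probes were among the brightest on the arrays. By mean signal, 4 of the 10 lay among the brightest 438 probes, and the dimmest, A_15_P121132 of actb1, lay at percentile 76.2. Apart from that probe, which was well above background on 15 arrays, the actin probes were well above background on all 16. Spots of this brightness were often marked as outliers by the scanner software, which was the case for 29 of the 160 actin spots (18.1%), for 30.6% of the spots of the brightest 438 probes and for 0.795% of all spots. Of the 29 marked actin spots, 19 were on arrays of exercised fish, and 16 of these were on slide 3. Levels of single fish are therefore given with every spot. The difference between the groups at each actin probe is given without the marked spots, as in the test across all probes, and with them. Signals of different probes cannot be set against each other on these arrays, so the share of each gene in the actin transcript pool was not computed. Changes of a probe between arrays can be compared. How far a probe of an actin gene also binds transcripts of another was not tested, as no probe sequences were examined.

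The striated gene actc1b, measured by the brightest actin probe, was at higher levels in most exercised fish. At probe A_15_P119599 its level ran from 7.49 to 10.18 with a median of 8.99 in non-exercised fish and from 8.26 to 10.26 with a median of 9.79 in exercised fish. The ranges overlapped, and 7 of 8 exercised fish were above the mean of the non-exercised fish. The difference was 0.73 ± 0.39 (SE) on the log2 scale without the marked spots, which leaves 4 exercised and 7 non-exercised fish, and 0.75 ± 0.37 (SE, n = 8 per group) with them. The raw signal of this probe lay between 54.3% and 100% of the saturation value of the scanner in exercised fish and between 26.1% and 68.7% in non-exercised fish. In exercised fish 7 it stood at the ceiling itself. These percentages are of the raw signal and not of the processed signal from which the levels were computed.

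The other actc1b probe, A_15_P112557, gave a like picture. Its level ran from 7.10 to 9.33 with a median of 8.35 in non-exercised fish and from 7.13 to 9.60 with a median of 8.97 in exercised fish. The exercised fish were higher by 0.92 ± 0.34 (SE) without and 0.63 ± 0.37 with the marked spots. Exercised fish 1 was the lowest exercised fish at both actc1b probes, and its spots were marked at both.

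The level of actc1a ran from 6.46 to 7.94 with a median of 7.04 in non-exercised fish and from 6.23 to 8.39 with a median of 7.90 in exercised fish. Of the exercised fish, 4 were above every non-exercised fish and exercised fish 1 was below every one. The difference was 0.62 ± 0.32 (SE, n = 8 per group) with every spot. All 4 exercised spots on slide 3 were marked, so that the value without marked spots, 0.78 ± 0.35, compares the 4 fish of slide 4 with the 8 non-exercised fish.

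The striated gene actc2 went the other way, and its difference was the largest in size among the 10 probes. Its level ran from 2.38 to 5.77 with a median of 4.96 in non-exercised fish and from -0.998 to 3.81 with a median of 1.74 in exercised fish. All 8 exercised fish were below the mean of the non-exercised fish and 5 were below the lowest of them, while the ranges overlapped through exercised fish 3, 5 and 7. The difference was -2.67 ± 0.63 (SE, n = 8 per group), a 6.35-fold lower mean signal, and none of its spots was marked. It stayed between -2.96 and -2.28 when any 1 fish was left out, and was -3.25 with the exercised fish of slide 3 alone and -2.09 with those of slide 4 alone. With the slide as a random block its estimate was unchanged and it was not called.

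**Figure D1:**
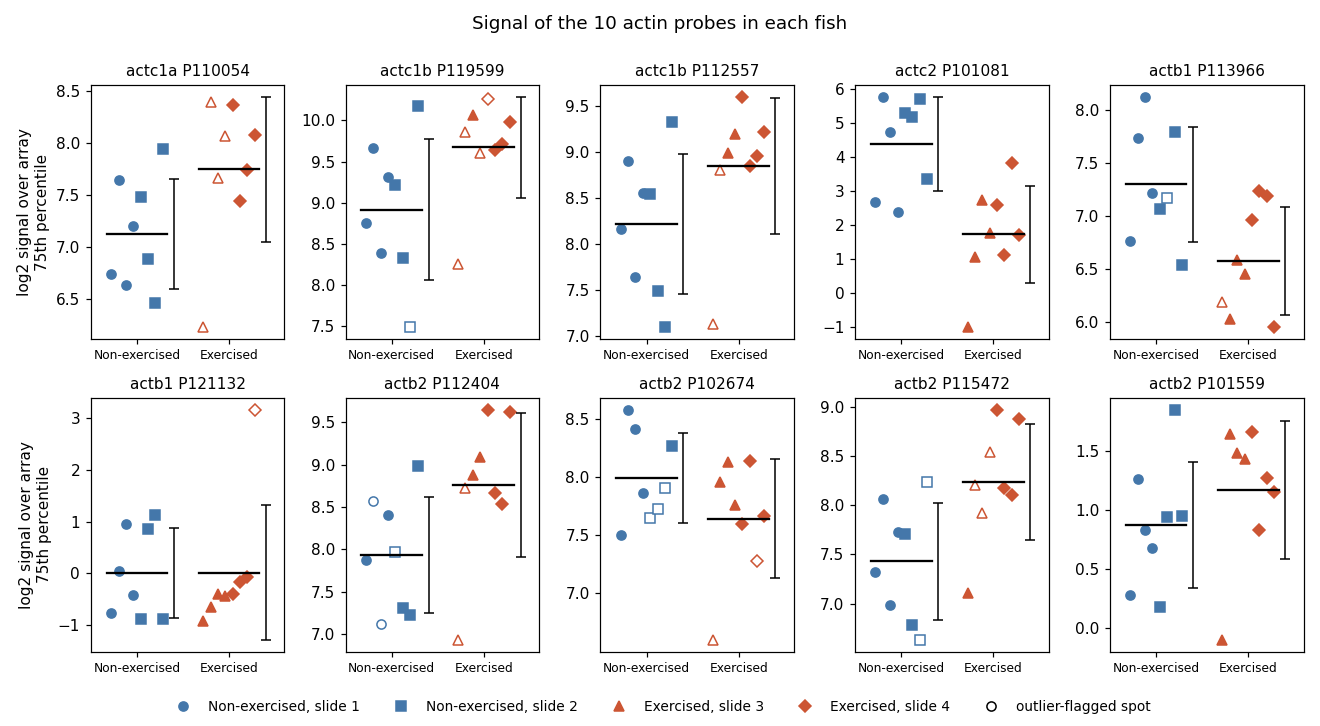
Level of each actin probe in each fish (y axis, log2 signal over the 75th percentile of the array) by group (x axis), with the shape giving the slide, open symbols the spots marked as outliers, the bar the mean and the whisker ± SD over 8 fish. At actc2 all exercised fish lie below the non-exercised mean, at actc1b and actc1a 7 of 8 lie above it, and the 1 high exercised point at A_15_P121132 is a marked spot.

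The cytoplasmic genes did not share a direction. At the brighter actb1 probe, A_15_P113966, the level ran from 6.54 to 8.12 with a median of 7.19 in non-exercised fish and from 5.95 to 7.23 with a median of 6.52 in exercised fish. All 8 exercised fish were below the non-exercised mean and 4 were below the lowest non-exercised fish. The difference was -0.69 ± 0.32 (SE) without and -0.72 ± 0.29 with the marked spots. The dim actb1 probe, A_15_P121132, differed by -0.44 ± 0.35 without marked spots and by 0.01 ± 0.51 with them. That shift rested on 1 marked spot, exercised fish 8, at a raw signal of 5697 against 455 to 1074 in the other exercised fish.

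The 4 probes of actb2 fell into different patterns. At the brightest, A_15_P112404, the level ran from 7.12 to 8.99 with a median of 7.93 in non-exercised fish and from 6.93 to 9.65 with a median of 8.81 in exercised fish. The difference was 1.11 ± 0.39 (SE) without and 0.83 ± 0.38 with the marked spots, and 7 of 8 exercised fish were above the non-exercised mean. A_15_P115472 ran from 6.63 to 8.23 in non-exercised fish and from 7.11 to 8.97 in exercised fish, with differences of 0.81 ± 0.39 and 0.80 ± 0.31. These probes placed the exercised fish higher. A_15_P102674 placed them lower, with differences of -0.25 ± 0.30 without and -0.35 ± 0.26 with the marked spots and 6 of 8 exercised fish below the non-exercised mean. The dimmest probe, A_15_P101559, differed by 0.30 ± 0.30 either way, with 6 of 8 exercised fish above the mean. The mean over the actb2 probes, each centred on its own level, differed by 0.41, so that the gene's difference depended on the probe taken.

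**Figure D2:**
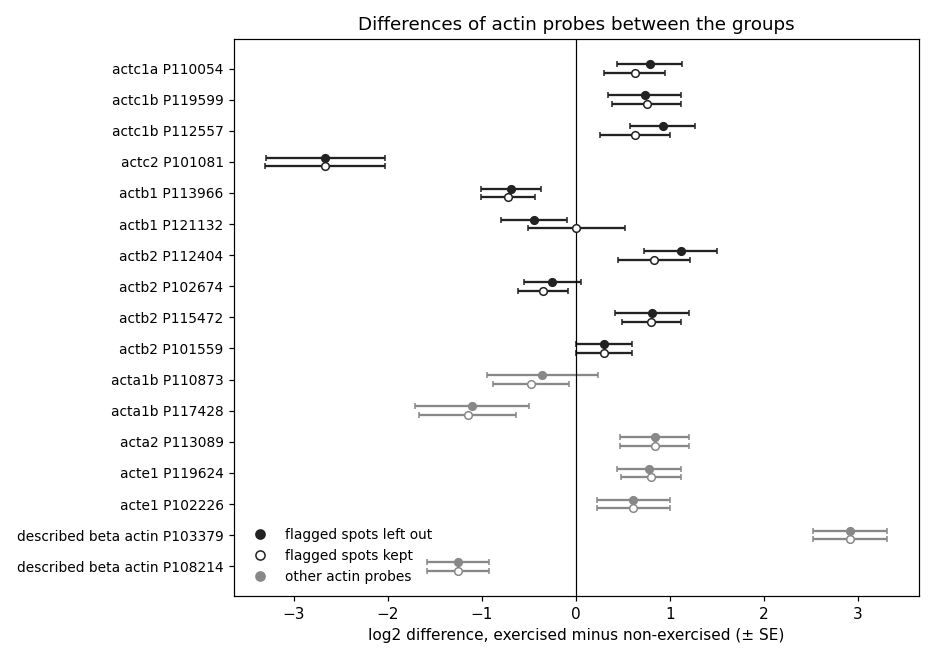
Difference between exercised and non-exercised fish at each actin probe (x axis, log2, with ± SE whiskers), filled symbols without and open symbols with the spots marked as outliers, black for the 10 probes of the 5 genes and grey for other actin probes. The difference of actc2 lies at -2.67, those of actc1a and actc1b lie above 0, and the actb2 probes lie on both sides of 0.

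Over the 10 probes, the difference was positive for 6 and negative for 4. Their median was 0.52 against 0.26 for all probes and -0.06 for the 2540 bright RefSeq-named probes. In the test across all probes, 1 of the 10, actc2, was called lower and 0 were called higher, where 6.37% of all probes were called in either direction (4.58% higher and 1.79% lower). With the marked spots kept, again 1 of the 10 was called, where 6.21% of all probes were. At an unadjusted p under 0.05, 5 of the 10 passed in the same limma fit, where 8590 of the 43803 probes did. At no actin probe were the groups free of overlap, which held for 1.34% of all probes. Nothing is read from these counts, since the genes were chosen with the comparison known. With the slide as a random block in limma, 0 actin probes were called and 1 passed an unadjusted p under 0.05, and over all probes 82 were called higher and 0 lower, with 3352 at an unadjusted p under 0.05.

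Differences between probes on the same array do not change when an array is shifted by a constant, although other normalizations move them, and they show where the actin genes changed unequally. They are descriptions of the comparison that chose the genes. Values with every spot, 8 fish per group, stand first, and those without the marked spots follow. The level of actc1b minus that of actc2 was 4.53 ± 1.86 (SD) in non-exercised and 7.95 ± 1.03 in exercised fish, a shift of 3.42 ± 0.75 (SE), and 7 of 8 exercised fish were above the highest non-exercised fish. Without the marked spots it was 2.60 ± 0.85 (SE, 4 exercised and 7 non-exercised fish). The shift of actc1a against actc2 was 3.29 ± 0.67 (SE), or 2.87 ± 0.79 without the marked spots. That of actc2 against actb2 at A_15_P112404 was -3.50 ± 0.74, or -2.69 ± 1.06. The gap between actc2 and the other striated genes moved, with every spot, by more than its SD over the fish of either group.

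Against actb1, actc1b shifted by 1.48 ± 0.50 (SE), with all 8 exercised fish above the non-exercised mean and 2 above the highest non-exercised fish, and by 1.1 ± 0.585 without the marked spots. The difference between actc1a and actc1b moved by -0.13 ± 0.18 (SE), and that between actc1b and actb2 at A_15_P112404 by -0.08 ± 0.17. Without the marked spots these were -0.12 ± 0.13 and -0.07 ± 0.21, so that in both the shift was smaller than its standard error, but after quantile normalization that of actc1a and actc1b was -0.26 ± 0.13.

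Within actb2, A_15_P112404 minus A_15_P102674 was -0.06 ± 0.69 (SD) in non-exercised and 1.12 ± 0.64 in exercised fish. This shift of 1.18 ± 0.33 (SE) put 6 of 8 exercised fish above the highest non-exercised fish, although both probes carry the accession of the same gene. Without the marked spots, which leaves 5 exercised and 3 non-exercised fish, it was 0.78 ± 0.32. A_15_P112404 minus A_15_P115472 moved by 0.03 ± 0.14 (SE). The probes of actc1b moved against each other by 0.13 ± 0.10 (SE).

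**Figure D3:**
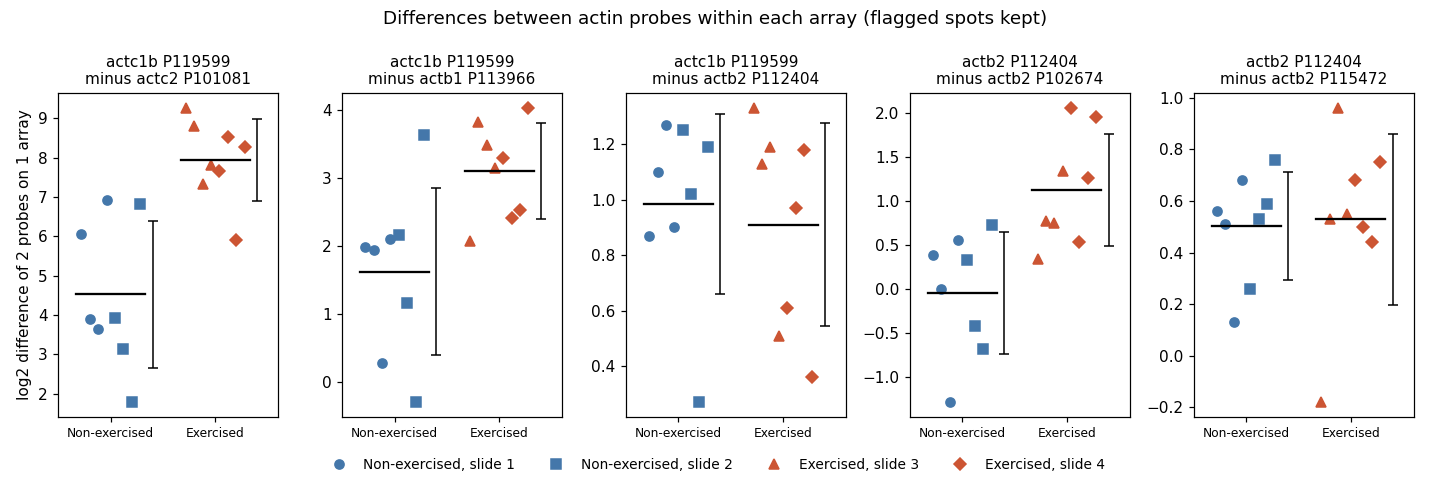
Difference in level between 2 actin probes on the same array (y axis, log2) for each fish by group (x axis), with the slide as the shape, the bar as the mean and the whisker as ± SD over 8 fish. The pair of actc1b and actc2 moved from 4.53 to 7.95, and the actb2 probes A_15_P112404 and A_15_P102674 moved from -0.06 to 1.12, while A_15_P112404 and A_15_P115472 kept nearly the same distance.

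The slides within a group hold fish of the same training and were not used in choosing the genes, so they were tested with limma. Between the slides of exercised fish, 0 of the 9 actin probes that could be tested were called, and 1 passed an unadjusted p under 0.05, where 34.8% of all probes were called (15194 probes). That background fell to 5225 probes after normexp background correction and to 2630 after quantile normalization, with 0 of the 9 actin probes called in either. Of an array's probes, 44.1% to 54.0% were well above background on slide 3 and 21.1% to 36.1% on slide 4. The part of dim probes in the share of 34.8% was not tested. With the marked spots kept, 0 of 10 were called, where 34.6% of all probes were. The nearest to the threshold was A_15_P115472 of actb2, higher on slide 4 by 1.41 ± 0.62 (SE, limma, adjusted p = 0.104), and this contrast rested on 1 unmarked spot on slide 3. The contrast of A_15_P119599 of actc1b also rested on 1 such spot, and those of A_15_P112557 and A_15_P112404 on 2 each. The level of actc2 was 1.16 ± 0.84 (SE) higher on slide 4 than on slide 3 (limma, adjusted p = 0.36).

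Between the slides of non-exercised fish, 0 of 10 actin probes were called and 0 passed an unadjusted p under 0.05, where 1.99% of all probes were called (1.87% with the marked spots). The background was 871 probes in this fit, 3770 after normexp and 1842 after quantile normalization, with 0 actin probes called in either. The level of actc2 was 0.98 ± 0.84 (SE) higher on slide 2 than on slide 1 (limma, adjusted p = 0.757). The mean levels of actc2 on slides 1 to 4 were 3.9, 4.88, 1.14 and 2.30, so that both exercised slides lay below both non-exercised slides.

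Fish of the same group differed widely at actc2. Its SD was 1.43 in exercised fish, a 28.1-fold range between the lowest and the highest fish, and 1.37 in non-exercised fish, a 10.5-fold range. Among the 2540 named probes well above background on every array, these SDs lay at percentiles 99.6 and 98.5, where the median SD was 0.44 in exercised and 0.56 in non-exercised fish. At actb1 the SDs of A_15_P113966 were 0.52 and 0.58, at percentiles 66.1 and 52.3. With every spot, the SD in exercised fish was 0.61 for actc1b, 0.70 for actc1a and 0.85 for actb2, and in non-exercised fish 0.85, 0.53 and 0.69. Without the marked spots it was 0.21, 0.40 and 0.47 over 4, 4 and 6 exercised fish, and 0.68, 0.53 and 0.75 over 7, 8 and 5 non-exercised fish. The probes of the skeletal alpha-actin gene acta1b also spread widely. With every spot, their SDs were 0.74 and 1.04 in exercised and 0.92 and 1.18 in non-exercised fish.

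Across fish, the bright striated probes and a pair of actb2 probes moved together. Relations were computed after the mean of each slide was removed, with p from permutation within slides (100000 resamples, two-sided). The brightest probes of the 5 genes form 10 pairs. Without the marked spots, which leaves 7 to 14 fish a pair, only actc1a and actc1b passed, with Pearson's r at 0.95 and Spearman's rho at 0.98 (n = 10, permutation p = 0.00225 and 0.00115, adjusted over the 10 pairs 0.0225 and 0.0115, r without the 2 fish farthest from the median 0.92). That call was lost after normexp background correction, with r at 0.90 and rho at 0.92 (permutation p = 0.0313 and 0.0339, adjusted 0.157 and 0.161), and after quantile normalization, with r at 0.83 and rho at 0.82 (permutation p = 0.0218 and 0.0133, adjusted 0.218 and 0.133). The scaled levels share the subtracted brightness of their array, which enters both members of every pair.

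With every spot, over 16 fish, 3 of the 10 pairs passed by r. For actc1a and actc1b, r was 0.89 and rho 0.87 (permutation p = 0.00019 and 0.00048, adjusted 0.000867 and 0.00213). For actc1b and actb2, r was 0.90 and rho 0.83 (permutation p = 0.00015 and 0.00064, adjusted 0.000867 and 0.00213), and without the marked spots r was 0.91 and rho 0.82 over 7 fish (permutation p = 0.0837 and 0.168, adjusted 0.209 and 0.28). For actc1a and actb2, r was 0.91 and rho 0.84 (permutation p = 0.00026 and 0.00061, adjusted 0.000867 and 0.00213). Without the 2 fish farthest from the median, r was 0.83, 0.88 and 0.85 for these pairs with every spot.

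Of the 45 pairs of actin probes, with every spot, 10 passed by r after Benjamini-Hochberg adjustment over the 45, with r from 0.89 to 0.96 and the highest adjusted p at 0.00148 by permutation. They were all the pairs among 5 probes, namely A_15_P119599 and A_15_P112557 of actc1b, A_15_P110054 of actc1a, and A_15_P112404 and A_15_P115472 of actb2. In all 10 pairs r was 0.83 or above without the 2 fish farthest from the median. Without the marked spots 8 of the 45 pairs passed. The subtracted brightness of the array enters both probes of each pair, and its part in these 45 relations and their p-values was not tested.

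No relation of actc2 with the other striated genes passed. With actc1a, r was 0.26 and rho 0.09 (permutation p = 0.429 and 0.778, adjusted 0.537 and 0.865), and with actc1b, r was 0.09 and rho 0.11 (permutation p = 0.757 and 0.706, adjusted 0.757 and 0.865). With actb1, r was 0.61 and rho 0.69 (permutation p = 0.0245 and 0.0118, adjusted 0.0612 and 0.0295), so that only the rank relation passed (r without 2 fish 0.59), and without the marked spots neither did (adjusted 0.137 and 0.149). The actb1 and actb2 levels had an r of -0.42 and a rho of -0.37 (permutation p = 0.111 and 0.194, adjusted 0.223 and 0.323).

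The actb2 probes A_15_P112404 and A_15_P115472 had an r of 0.95 with each other and 0.95 each with A_15_P112557 of actc1b. Between A_15_P112404 and A_15_P102674 of the same gene, r was 0.53 and rho 0.46 (permutation p = 0.0912 and 0.115, adjusted over the 45 pairs 0.241 and 0.324). The part of actc1b transcripts in the signal of these actb2 probes was not tested.

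**Figure D4:**
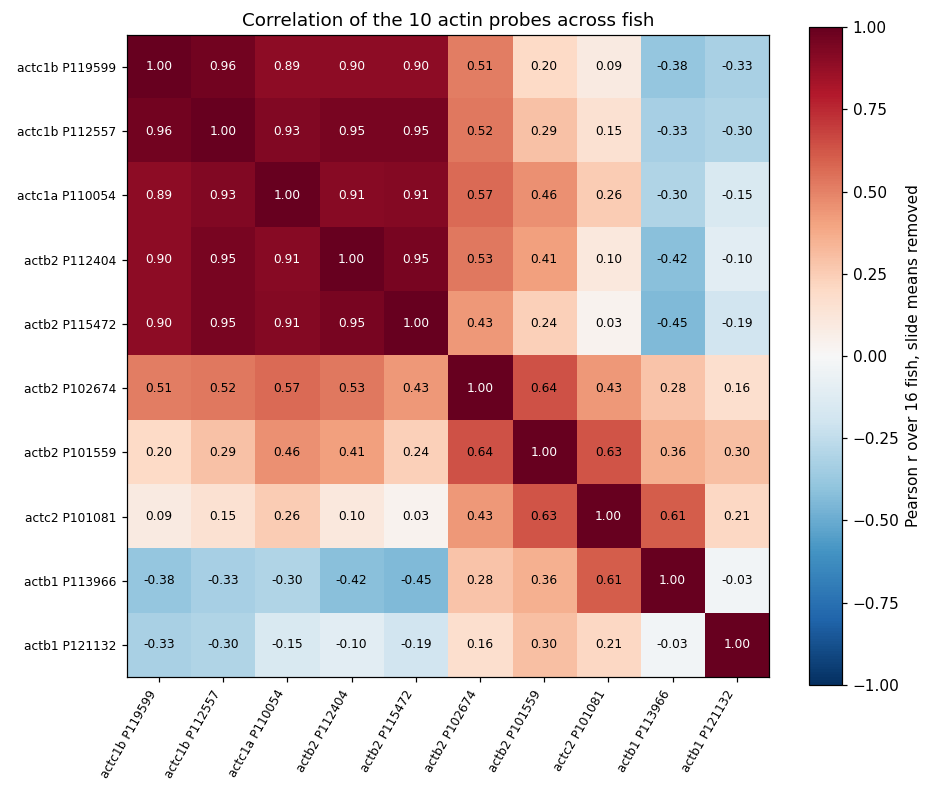
Pearson's r between the 10 actin probes (rows and columns) over 16 fish with slide means removed and every spot kept, coloured from -1 to 1. The probes of actc1b, actc1a and the actb2 probes A_15_P112404 and A_15_P115472 form a block with r from 0.89 to 0.96, which actc2, actb1 and the other actb2 probes do not share. The subtracted brightness of the array enters both probes of each pair and was not removed.

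The levels of the same 5 probes moved against the brightness of the array. Every level has the 75th percentile of its array subtracted, so an unscaled signal that does not follow the percentile gives a negative relation by construction. The p-values of these relations test the scaled level and are not read as a property of actin. The 75th percentile of an array ran from 8.69 to 10.69 (log2) in exercised and from 8.65 to 10.42 in non-exercised fish, and the means differed by 0.20 (exact permutation test, two-sided, p = 0.539). With slide means removed and every spot kept, the level of actc1b at A_15_P119599 fell as this percentile rose, with r at -0.88 and rho at -0.90 (permutation p = 0.00046 and 0.00012, adjusted over 10 probes 0.00173 and 0.0012, r without the 2 fish farthest from the median -0.86). At A_15_P112404 of actb2 r was -0.88 and rho -0.80 (permutation p = 0.00034 and 0.00154, adjusted 0.00173 and 0.00513, r without 2 fish -0.81), and at actc1a r was -0.82 and rho -0.75 (permutation p = 0.00601 and 0.00803, adjusted 0.012 and 0.0161, r without 2 fish -0.72). The slope of the actc1b level on the percentile was -0.97, close to the slope at which the unscaled signal stays level while the array brightens. Without the marked spots, r was -0.84, -0.87 and -0.85 for these probes, over 10, 11 and 12 fish (permutation p = 0.00966, 0.0424 and 0.00696, adjusted 0.0241, 0.0848 and 0.0241). Exercised fish 1, the lowest exercised fish at each of these probes, was on the array with the highest percentile, 10.69.

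For actc2, r with the percentile was -0.22 and rho -0.13 (permutation p = 0.472 and 0.653, adjusted 0.472 and 0.653), and for actb1 at A_15_P113966 r was 0.26 and rho 0.29 (permutation p = 0.302 and 0.286, adjusted 0.432 and 0.358). With the percentile as a covariate, an alternative chosen after seeing the data, the difference between the groups was 0.95 ± 0.22 (SE) for actc1b at A_15_P119599, 0.76 ± 0.23 for actc1a, 1.02 ± 0.26 for actb2 at A_15_P112404, -0.74 ± 0.27 for actb1 at A_15_P113966 and -2.63 ± 0.74 for actc2. The relation of actc1a and actc1b then had an r of 0.63 and a rho of 0.65 (permutation p = 0.00468 and 0.00451, adjusted 0.0413 and 0.0288), and that of actc1b and actb2 an r of 0.54 and a rho of 0.65 (permutation p = 0.0682 and 0.026, adjusted 0.171 and 0.065). That of actc1a and actb2 had an r of 0.69 and a rho of 0.74 (permutation p = 0.0117 and 0.00671, adjusted 0.0413 and 0.0288). The relation of actc2 and actb1 had an r of 0.71 and a rho of 0.73 (permutation p = 0.0124 and 0.00865, adjusted 0.0413 and 0.0288). Without the 2 fish farthest from the median, r was 0.66, 0.62, 0.73 and 0.65 for these pairs.

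**Figure D5:**
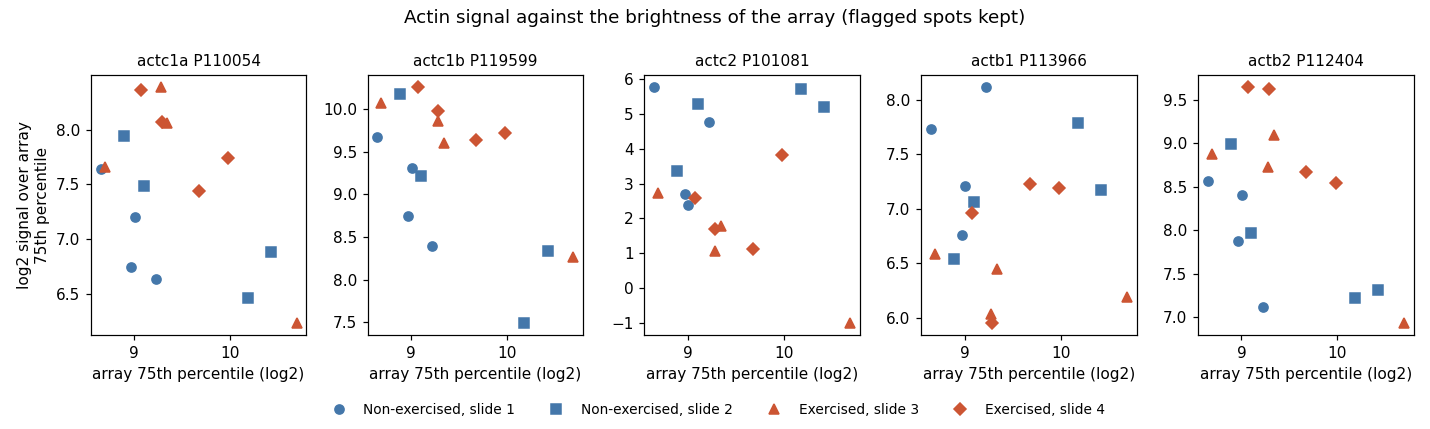
Level of the brightest probe of each actin gene (y axis, log2 signal over the 75th percentile of the array) against that percentile (x axis, log2) for the 16 fish, with colour for the group and shape for the slide. The levels of actc1b, actc1a and actb2 fall from left to right within both groups, with r at -0.88, -0.82 and -0.88 after slide means were removed, while those of actc2 and actb1 have r at -0.22 and 0.26. The percentile on the x axis is also subtracted in the level on the y axis.

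The named genes whose levels were most like those of each actin gene were found by Pearson's r over the arrays with unmarked spots, among the 2540 bright named probes and with slide and group differences left in. The subtracted brightness of the array was not removed either and enters both members of each pair. For actc2, over 16 arrays, these were gsna at r = 0.87, which encodes the actin-severing protein gelsolin, the phosphatase gene ptp4a1 at 0.83 and the small GTPase gene rap1b at 0.83. For actc1a, over 12 arrays, they were the glycolytic enolase eno1a at 0.96, ank1a, which encodes an ankyrin that links membranes to the cytoskeleton, at 0.96, and the tropomyosin gene tpma at 0.94. For actc1b, over 10 or 11 arrays, they were rtn1a, a reticulon of the endoplasmic reticulum, at 0.95, the Z-disc gene myoz2a at 0.95 and clptm1l at 0.93.

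For actb1, over 14 arrays, the most alike were clta, the light chain of clathrin, at 0.92, txndc5, a thioredoxin-like protein of the endoplasmic reticulum, at 0.91, and the transketolase gene tktb at 0.91. For actb2 at A_15_P112404, over 10 or 11 arrays, they were the glycolytic aldolase aldoaa at 0.98, the phosphoglucomutase gene pgm1 at 0.96 and ank1a at 0.96. None of the 3 genes was shared between actb1 and actb2. When marked spots were kept, all 3 genes were replaced for actb1 and for actb2, some were for actc1a and actc1b, and none was for actc2.

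Other actin genes were measured beside the 5. Of 6 listed, acta1b and acta2 had a RefSeq-named probe, and neither was called by limma, with acta2 under an unadjusted p of 0.05. The skeletal alpha-actin gene acta1b differed by -0.35 ± 0.59 (SE, limma, adjusted p = 0.738) at its brighter probe, where 3 non-exercised spots were unmarked, and by -1.10 ± 0.60 (adjusted p = 0.348) at the other. With every spot, these differences were -0.47 ± 0.40 and -1.15 ± 0.52. The smooth muscle gene acta2 was higher in exercised fish by 0.84 ± 0.36 (SE, limma, adjusted p = 0.202), with 8 of 8 exercised fish above the non-exercised mean. The actin gene acte1, added after its values were seen, differed by 0.78 ± 0.34 (limma, adjusted p = 0.207) and 0.61 ± 0.39 (adjusted p = 0.431) at its 2 probes. With every spot, the former was 0.80 ± 0.32 and the latter, which had no marked spot, was the same.

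A further pair of probes carries no RefSeq accession but a beta actin description in the authors' table, which lists only probes that the authors selected for a difference, and both were chosen here after their values were seen. Their differences are no independent evidence. Probe A_15_P103379 was higher in exercised fish by 2.91 ± 0.40 (SE), with levels from 0.98 to 2.69 against -2.55 to 0.23 and no overlap, and was well above background on all 8 exercised and 5 of 8 non-exercised arrays. Probe A_15_P108214 differed by -1.25 ± 0.33, with levels from -3.13 to -1.94 against -2.27 to -0.23, and was well above background on 1 array of exercised and 5 of non-exercised fish.

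Of the genes that fold actin or turn its filaments over, those called were lower in exercised fish. This list and those that follow were chosen with earlier results of these data known. Their counts and p-values are therefore given as a description and are no independent evidence. Of 35 measured of 51 listed, 0 were called higher and 6 were called lower (17.1%). By their brightest probe, 3.21% of all genes were called higher and 3.01% lower. Most of the list was bright, with 27 of the 35 well above background on all 16 arrays. Of the 7948 probes of that kind, tested alone, 675 were called higher and 661 lower, a larger share than over all genes. In the list, 31 of the 35 differences were negative. Their median was -0.82 against 0.07 for all genes and -0.06 for the 2540 bright RefSeq-named probes. The called genes were cct7 at -1.41 ± 0.33 (SE, limma, adjusted p = 0.016) and cct3 at -0.99 ± 0.27 (adjusted p = 0.0364) of the CCT chaperonin, which folds new actin, pfdn6 at -0.99 ± 0.28 (adjusted p = 0.0396) of prefoldin, which hands actin to it, arpc5la at -1.26 ± 0.30 (adjusted p = 0.0174) of the Arp2/3 complex, which branches filaments, wdr1 at -1.26 ± 0.29 (adjusted p = 0.0147), a partner of cofilin in taking filaments apart, and pfn2a at -0.85 ± 0.25 (adjusted p = 0.0498), a profilin that binds monomers. All 8 measured CCT genes had negative differences, from -1.41 to -0.56, and so had all 10 measured Arp2/3 genes, from -1.38 to -0.62. The 5 measured genes of profilin, thymosin and gelsolin were negative too, from -2.08 to -0.08. Other parts of the list were mixed. Cofilin and its partners had 4 negative and 2 positive differences, from -1.26 to 0.59. The list also holds muscle chaperones of myosin and actin, with 3 negative and 2 positive, from -1.58 to 0.98, and 0 called. The count of 6 was 0 with the slide as a random block, 3 after normexp background correction, 10 after quantile normalization or cyclic loess, and between 3 and 8 without any 1 fish, falling to 3 when exercised fish 2, 3, 6, 7 or 8 was left out, or non-exercised fish 1, 3 or 5.

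Partners of actin in the thin filament were called in both directions. Of 24 measured of 54 listed, 2 were called higher and 1 lower (12.5%), where 3.21% and 3.01% of all genes were called. The median difference was 0.31 against 0.07. Most of the list was bright, with 16 of the 24 well above background on all 16 arrays. Of the 7948 probes of that kind, tested alone, 675 were called higher and 661 lower, a larger share than over all genes. No excess is read from the count. The troponin I gene tnni2b.2 was higher by 1.33 ± 0.34 (SE, limma, adjusted p = 0.0309), and tmod4, which caps the pointed end of the filament, was higher by 1.48 ± 0.34 (adjusted p = 0.0141), in 8 of 8 exercised fish above the non-exercised mean. The troponin T gene tnnt3a was called lower in exercised fish (limma, adjusted p = 0.0135), a test of its computed levels. It was not well above background on any exercised array and was on 7 non-exercised arrays. Its difference is therefore given as a bound, at least 2.10-fold lower, which the p-value does not test. For the bound, an exercised array counts with the dimmest signal that was well above background on it, or with the probe's own where that was brighter. The count of genes called higher was 1 when exercised fish 3, 4, 5 or 8 was left out, or non-exercised fish 3, 6 or 7, and also with the marked spots kept, with median scaling and after normexp background correction. It was 3 after quantile normalization, 4 with slide 4 alone and 0 with slide 3 alone, and with the slide as a random block no gene of the list was called and 4 passed an unadjusted p under 0.05. Of 41 listed genes of serum response factor, a regulator of actin genes, and its partners, 13 were measured and 0 were called by limma, with a median of 0.19. There 1 passed an unadjusted p under 0.05, and 1 was called after quantile normalization.

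Markers of other cells were set beside these values. The shares given with them are over all genes. Of the 7948 probes well above background on all 16 arrays, tested alone, 675 were called higher and 661 lower. All 7 measured genes of connective tissue had positive differences with a median of 1.00 against 0.07 for all genes, and 3 of them, col1a1a, col1a2 and sparc were called higher, where 3.21% of all genes were (limma, adjusted p = 0.04996, 0.0298 and 0.0454), a count that was 1 with the marked spots kept, 2 after quantile normalization and 0 after normexp background correction or with the slide as a random block. Their summed level ran from 56.2 to 230 times the 75th percentile with a median of 176 in exercised fish and from 41.1 to 274 with a median of 71.4 in non-exercised fish. All 6 measured genes of red cells were positive, among them hbae3, which was well above background on no array. Their median was 1.15 and their summed level ran from 223 to 756 against 71.8 to 359. By limma 0 were called and 4 passed an unadjusted p under 0.05, where 8590 of the 43803 probes did. The nearest to the threshold were hbaa1 and hbba1 (limma, adjusted p = 0.0537 and 0.0551). After quantile normalization 2 red cell genes were called higher, where 1778 of the 43803 probes were, and 0 with the slide as a random block. Of the 8 measured leukocyte genes 7 were negative with a median of -0.88, 0 calls by limma and 1 at an unadjusted p under 0.05, with a summed level of 25.2 to 370 against 30.0 to 347, and every one but mpx was well above background on arrays of both groups. Of the 9 measured skin genes 7 were positive with a median of 0.53, and 1, the keratin gene krt15, was called higher by 1.66 ± 0.33 (SE, limma, adjusted p = 0.00567), a call lost with the slide as a random block. The summed level of the skin genes ran from 212 to 536 in exercised and from 176 to 423 in non-exercised fish. Of 3 measured smooth muscle genes 1 was positive and 2 were negative, among these foxc1b, which was well above background on no array. Of 2 measured endothelial genes, tek differed by 0.003 ± 0.27 (SE) and cdh5 was well above background on no array, so no direction is read. By limma 0 were called in either list. The part of these cells in the levels of actb1 and actb2, which every cell type can express, was not tested, and fewer cells of a type cannot be told apart from less RNA per cell.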

How the data were processed

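Fast muscle RNA of 16 zebrafish, 8 per group, had been hybridised by the authors to single-colour Agilent arrays, 1 fish per array, on 4 slides. The deposited scanner files hold spot intensities that the authors extracted with Agilent Feature Extraction 10.7.3.1, as named in the submitters' processing notes, with local background already subtracted. The deposited table of selected probes holds log2 values that the authors had scaled to the 75th percentile in GeneSpring, and its values differed from those computed here by a median of 0.00108 over 2985 probes. Its columns of p-values, corrected p-values, direction and fold change are the authors' own comparison and were not used.

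Here, log2 processed signal minus the array's 75th percentile over non-control probes was fitted with limma 3.58.1 (R 4.3.3, statmod 1.5.0), with spots marked as outliers by the software left out and Benjamini-Hochberg adjustment over 43803 probes. The procedure was tested on simulated data. Permutation tests used Python 3.11.15 with numpy 2.4.6, pandas 2.3.3 and scipy 1.17.1. Gene symbols came from RefSeq through the accession of each probe. Genomic positions and sequences were not used here, since the array's design and the gene table are of different assemblies. A gene of a list is represented by its brightest probe. Named were the 10 actin probes, the other actins, called list genes and the 3 genes most alike to each actin. The members and lists were chosen with earlier results of these data known. The number of arrays limits the precision. Alternatives were background correction (normexp with offset 50, or none), quantile, median and cyclic loess scaling, filters on dim probes, array weights, slide or replicate number as a block, the mean over a gene's probes, marked spots kept, single slides, each fish left out and the methods' t-test.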

Additional observations from a re-analysis of the deposited data

Results flagged for a closer look

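The dimmest actb2 probe, A_15_P101559, had 1 exercised fish apart from the others. Exercised fish 1 was at a level of -0.102, and its gap to the next fish, relative to the range of the 8 exercised fish, just reached the critical value of the Dixon test. Of 20 groups of fish screened over the 10 actin probes, 1 was picked out, and chance picks about 1 in 20. The same fish was on the brightest array.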

How the results depend on the processing

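The 10 actin differences kept their sign under every alternative, except actb1 at A_15_P121132, which was 0.01 with marked spots kept and 0.63 with them kept and slide 4 alone, and actb2 at A_15_P115472, which was -0.32 with slide 3 alone. With slide 3 alone and marked spots kept, actc1b at A_15_P112557 differed by 0.32 and actb2 at A_15_P112404 by 0.47. With the fish of all slides and without marked spots, the mean over the actb2 probes differed by 0.41. The actin probes called are given with the probes called higher and lower among all probes tested in brackets. Nothing is read from these counts of actin probes, here or below, since the genes were chosen with the comparison known. They numbered 2 after quantile normalization (1778 and 1554) and 2 after cyclic loess (2674 and 1549). Among the 7948 probes well above background on all 16 arrays, 3 actin probes were called (675 and 661). With slide 4 alone 2 were called (14528 and 1095), and 3 with marked spots also kept (14643 and 1054). With the slide as a random block 0 actin probes were called (82 and 0).

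Without any 1 fish, 1 to 2 were called (2 without non-exercised fish 8). The differences then ran from 0.63 to 0.94 for actc1a, 0.60 to 0.91 and 0.76 to 1.08 for actc1b, -2.96 to -2.28 for actc2, -0.81 to -0.55 and -0.57 to -0.28 for actb1, and 0.93 to 1.37, -0.40 to -0.13, 0.63 to 1.09 and 0.20 to 0.48 for actb2 at A_15_P112404, A_15_P102674, A_15_P115472 and A_15_P101559.

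Over all probes, the count called higher was 710 with no background correction, 489 with normexp, 1091 and 675 among probes well above background on at least 8 and on all 16 arrays, 3132 with array weights, 82 with the slide as a random block, 1315 with slide 3 alone (1294 with marked spots kept) and 14528 with slide 4 alone (14643). The count called lower was 284 with normexp, 1554 with quantile, 1426 with median and 1549 with cyclic loess scaling, 1550 on at least 8 arrays, 2580 with array weights, 0 with the slide as a random block (3352 at an unadjusted p under 0.05 in either direction) and 1820 by the methods' t-test at their threshold. Without any 1 fish, 1354 to 2883 were called higher and 287 to 1196 lower. The cause of these changes was not tested.

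For the relations, r of actc1a and actc2, -0.08 without marked spots, was 0.26 with marked spots kept, 0.20 with quantile and 0.0206 with median scaling, and 0.14 with array brightness as a covariate. That of actc1b and actc2, -0.19 without marked spots, was 0.0874 with marked spots kept and 0.0695 with quantile scaling, and that of actc2 and actb2, -0.62 without them, was 0.10 with marked spots kept, so that the sign of all 3 changed. For actc1a and actb2 it was 0.91 with marked spots kept and 0.69 with the covariate, and for actc1b and actb2 0.90 with marked spots kept. For actc1a and actc1b, 0.95 before, it was 0.90 with normexp and 0.83 with quantile scaling and no longer passed, for actc1b and actb1, -0.35 before, 0.24 with median scaling, and for actc2 and actb1 0.71 with the covariate. The SD in exercised fish with marked spots kept was 0.696 for actc1a, 0.615 for actc1b and 0.853 for actb2. With normexp it was 0.181 for actc1a and 0.325 for actc1b, with quantile scaling 0.251 for actc1a and 0.224 for actb2 (0.409 in non-exercised fish), and with median scaling 0.408 for actc1b, 0.795 for actb1 and 0.283 for actb2.

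With the replicate number as a block, 2256 probes were called higher and 991 lower. The 1 actin probe called was that of actc2, at -2.67, on whose difference the genes were chosen. Deviations of fish with the same number correlated between -0.02 and 0.43, and 6 of 16 fish correlated best with their own number, so the numbers were not taken as pairs. The alternatives with marked spots kept or array brightness as a covariate were chosen after seeing the data. Bright spots near the ceiling of the scanner and the marked spots limit actc1b, actc1a and actb2, and 1 tunnel per group limits every difference.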
